A study of Mus musculus with 8 samples.

Results

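The genes described here are 8 markers of the subplate: Nr4a2, Ctgf, Cplx3, Nxph4, Lpar1, Moxd1, Inpp4b and Tmem163. They were chosen by gene symbol from the 23284 symbols of the count files, and all 8 were found. RNA from the dorsal cortex of embryos at E15.5 (embryonic day) was sequenced. Of the libraries, 4 were labelled wild type (here ErbB4+/+) and 4 ErbB4 knockout (here ErbB4-/-). The paper that reported them names no strain for these embryos. The ErbB4-/- line lacks the receptor tyrosine kinase ErbB4 in all tissues except the heart, where a transgene under the alpha-MHC promoter supplies it because embryos without cardiac ErbB4 die. Meningeal tissue and the ganglionic eminences were dissected away before RNA extraction, and both lines were bred as homozygous colonies. Litters, embryo sex and pooling of embryos are not given in the sources used here, so the p-values measure the spread between these 8 libraries.

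The subplate is a transient layer beneath the cortical plate that holds some of the earliest-born neurons of the neocortex. These neurons fire early, receive the first thalamic input and help thalamic axons to find the cortex, and those that survive form layer 6b of the adult. Several of the genes that mark them have other sources in the forebrain. Nr4a2 is also known from the claustrum, Lpar1 from the dividing cells of the ventricular zone, and Ctgf from blood vessels and connective tissue. A bulk library sums all of these cells, so fewer cells of a type and less RNA per cell cannot be told apart.

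In the libraries, 7 of the 8 markers were expressed above the filter on low counts and Cplx3 was close to absent. None of the 7 passed the test between genotypes, in which 4 of 14696 genes were called (0.0272%; edgeR quasi-likelihood test, Benjamini-Hochberg adjusted p under 0.05), and none passed with DESeq2 or limma-voom either. Lpar1 was the 1 marker of 7 whose genotypes did not overlap, with all 4 libraries labelled ErbB4-/- below all 4 ErbB4+/+ libraries. Such a separation was found in 3.34% of all tested genes in either direction, and in 1.48% with ErbB4-/- lower. The other 6 markers overlapped, and their log2 fold changes lay on both sides of 0. Of the 7 markers tested, 4 had a positive log2 fold change (ErbB4-/- over ErbB4+/+) and 3 a negative one, and the median was 0.06, moving between 0.01 and 0.12 when single libraries were left out (lowest when ErbB4-/- replicate 2 was omitted, highest when ErbB4-/- replicate 4 was). Over all tested genes the median was -0.0022 and 49.2% were positive.

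Depth was between 28205703 and 48871480 counts per library and did not separate the genotypes (exact two-sided permutation test, p = 0.257). Levels are given as CPM, the gene's counts per 1000000 of the TMM-normalized library size. Erbb4 itself was not lower in the libraries labelled ErbB4-/-, with 22.4 ± 1.92 CPM against 18.3 ± 6.81 in ErbB4+/+ (SD, n = 4; edgeR adjusted p = 0.812). This check of RNA summed over the entire gene therefore did not separate the labels, and directions are given for the libraries as labelled. Xist, the RNA of the inactive X chromosome, was at 983 to 1687 CPM in ErbB4+/+ replicates 1 to 3 and at 2.70 to 3.82 CPM in the other 5 libraries, whose level of the Y-linked gene Ddx3y was 76.4 to 80.9 CPM. ErbB4+/+ replicate 4 is thus the one ErbB4+/+ library without Xist, and embryo sex and genotype are largely confounded. ErbB4+/+ replicate 1 stood apart in a trend of its deviations with transcript length (Spearman's rho across genes -0.579, against 0.037 to 0.224 in the other 7), and ErbB4-/- replicate 3 held 647 CPM of choroid plexus and hem genes against 47.7 to 63.9 in the rest. As to the tissue label, the cortical neuron gene Neurod6 was at 839 to 1093 CPM in all libraries, while the 5 hindbrain and spinal cord Hox genes summed to at most 0.0855 CPM.

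Among the markers, Nr4a2 and Lpar1 have their promoters shown, the first as the transcription factor of the group and the second as the marker whose genotypes did not overlap. The windows run from 250 bases before to 50 bases after a RefSeq start in GRCm38.p6, 5′ to 3′ on the gene's strand, and are in another build than the gene positions given with the levels. The window of Nr4a2 is chr2:57123954-57124253 and that of Lpar1 is chr4:58553244-58553543, both on the minus strand. Capitals mark the half-site of the cAMP response element, TGACG or its reverse CGTCA, and the TATA box, TATAAA or its reverse TTTATA.
Nr4a2: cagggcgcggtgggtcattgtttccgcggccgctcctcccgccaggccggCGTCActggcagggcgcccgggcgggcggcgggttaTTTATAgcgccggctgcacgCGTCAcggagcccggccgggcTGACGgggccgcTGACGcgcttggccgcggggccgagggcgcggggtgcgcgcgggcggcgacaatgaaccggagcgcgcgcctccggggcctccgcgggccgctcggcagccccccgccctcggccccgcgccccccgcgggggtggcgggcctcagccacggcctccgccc
Lpar1: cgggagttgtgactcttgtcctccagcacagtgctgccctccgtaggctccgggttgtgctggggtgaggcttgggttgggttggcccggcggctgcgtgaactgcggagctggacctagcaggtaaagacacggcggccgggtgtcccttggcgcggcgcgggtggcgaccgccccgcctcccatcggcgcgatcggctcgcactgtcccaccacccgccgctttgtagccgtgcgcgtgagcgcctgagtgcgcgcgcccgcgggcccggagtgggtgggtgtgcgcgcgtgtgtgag
The Nr4a2 window held 4 half-sites and 1 match to the TATA box letters, none of them overlapping, and was 81.7% G and C. The TATA match began at position -164 from the RefSeq start. The Lpar1 window held neither motif and was 71.7% G and C. Of 32851 windows of the same length, 20.8% held the half-site and 13.6% the TATA box on either strand. In all, 6 of the 8 markers had a window in the RefSeq table, with 3 for Lpar1, and Ctgf and Nxph4 did not. Across these 8 windows G and C made up 43.7 to 81.7% of bases, against a median of 52.7% over all windows. Tmem163 had 1 half-site, and neither the NR4A response element AAAGGTCA (1.51% of all windows) nor the TEAD element GGAATG (14.7%) was found on either strand of the 8 windows. These matches describe letters in the windows and no more.

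Compared per length of the longest annotated transcript, the means of the 7 tested markers ran from 0.466 to 18.6 CPM per kb. Cplx3, with at most 4 reads in a library, was near the limit of counting, so no ratio to it is given. Nxph4 was the highest at 18.6 ± 2.07 CPM per kb (SD over all 8 libraries), followed by Nr4a2 at 12.3 ± 0.924, Lpar1 at 6.58 ± 0.865 and Tmem163 at 5.44 ± 0.416. Ctgf came next at 1.54 ± 0.325 CPM per kb, then Moxd1 at 0.612 ± 0.104, Inpp4b at 0.466 ± 0.108 and Cplx3 at 0.00831 ± 0.0156. Neighbours in this order overlapped in their ranges over the libraries for Lpar1 with Tmem163 and for Moxd1 with Inpp4b, and were separate for the other neighbours. Against all tested genes, Nxph4 stood at percentile 68.9 of level per kb, Nr4a2 at 57.1, Lpar1 at 41.8, Tmem163 at 38.0, Ctgf at 20.5, Moxd1 at 12.3 and Inpp4b at 10.1. The expressed markers were thus middling to low in RNA of the entire tissue.

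**Figure D1:**
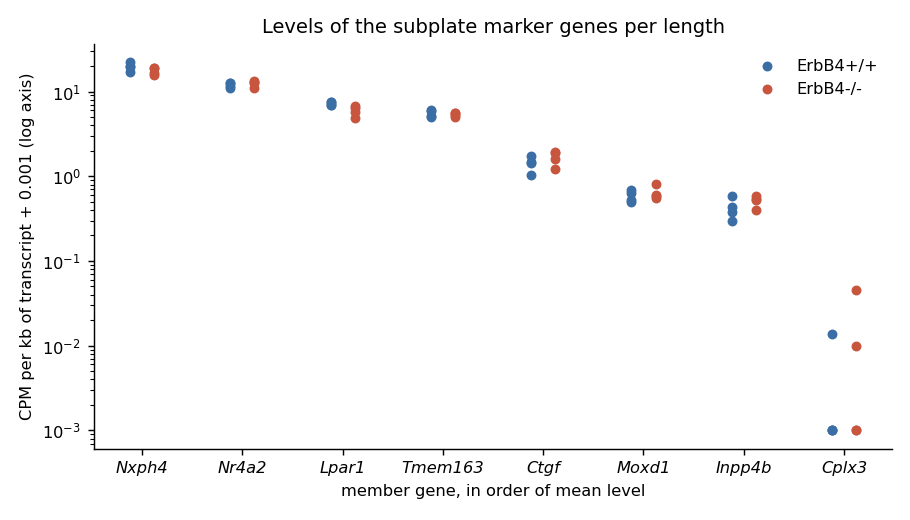
Level of each of the 8 markers in CPM per kb of its longest transcript, with 0.001 added, on a log axis, one point per library (blue ErbB4+/+, red ErbB4-/-). The order runs from Nxph4 (mean 18.6) to Cplx3 (mean 0.00831), and the ranges of the genotypes overlap for every marker except Lpar1.

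Nr4a2 encodes an orphan nuclear receptor, also called Nurr1, that acts as a transcription factor in subplate, claustral and midbrain dopamine neurons. The gene (ENSMUSG00000026826.5) lies on the minus strand of chr2:56959241-56976414 (mm9). Its level was 41.2, 45.3, 39.6 and 45.0 CPM in ErbB4+/+ replicates 1 to 4 and 45.5, 45.9, 48.2 and 39.1 CPM in ErbB4-/- replicates 1 to 4. The lowest and the highest library were both labelled ErbB4-/-. The means of 42.8 ± 2.80 and 44.7 ± 3.89 CPM (SD, n = 4) gave a log2 fold change of 0.06 (95% interval -0.11 to 0.23; edgeR adjusted p = 0.859). The reads behind each library numbered 1156 to 2239, and the interval bounds the difference between -7.08 and 17.6%. Omitting replicate 3 of either genotype gave 0.03 and omitting ErbB4-/- replicate 4 gave 0.12, and with Xist as a covariate the sign turned (-0.01).

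Ctgf, also named Ccn2, encodes a secreted matricellular protein and is a target of the YAP and TEAD transcription factors. It lies on the plus strand of chr10:24315248-24318489 (ENSMUSG00000019997.4). Levels were 2.46, 4.20, 3.41 and 3.56 CPM in ErbB4+/+ and 4.65, 3.88, 4.58 and 2.89 CPM in ErbB4-/-, from 69 to 229 reads. The ranges overlapped, with 3.41 ± 0.719 against 4.00 ± 0.818 CPM (SD, n = 4) and a log2 fold change of 0.23 (95% interval -0.19 to 0.65; edgeR adjusted p = 0.813). The lowest value came from ErbB4+/+ replicate 1, the library with the length trend, and without it the log2 fold change was 0.11, or 0.05 when ErbB4-/- replicate 3 was left out too. Omitting ErbB4-/- replicate 1 gave 0.15, and omitting either ErbB4-/- replicate 4 or ErbB4+/+ replicate 2 gave 0.35. The antisense lincRNA Gm15270 shares 570 exon bases with Ctgf, and because the libraries did not keep the strand, reads of the pair cannot be told apart there.

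Nxph4 encodes a neurexophilin, a member of a family of secreted glycoproteins that bind neurexins. The gene (ENSMUSG00000040258.5) occupies the minus strand of chr10:126962529-126971615. It was at 37.1, 32.3, 28.5 and 34.0 CPM in ErbB4+/+ and at 28.1, 26.4, 31.6 and 31.9 CPM in ErbB4-/-. The 2 lowest libraries were labelled ErbB4-/- and the 2 highest were not, but the ranges overlapped. The log2 fold change of -0.16 (SE 0.093, 95% interval -0.36 to 0.04) did not pass the test (edgeR unadjusted p = 0.112, adjusted p = 0.810), from means of 33.0 ± 3.56 and 29.5 ± 2.69 CPM (SD, n = 4). It was -0.10 without ErbB4+/+ replicate 1.

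Lpar1 encodes a G protein-coupled receptor for lysophosphatidic acid. It lies on the minus strand of chr4:58448127-58566770 (ENSMUSG00000038668.8). Its level was 26.5, 24.4, 24.6 and 26.4 CPM in ErbB4+/+ replicates 1 to 4 and 17.4, 20.5, 23.0 and 23.7 CPM in ErbB4-/- replicates 1 to 4. All ErbB4-/- libraries were below all ErbB4+/+ libraries, and the ErbB4-/- libraries were spread more widely. Of all tested genes, 1.48% showed this separation with ErbB4-/- lower (218 of 14696), 1.86% with ErbB4-/- higher and 3.34% in either direction. Means were 25.5 ± 1.15 and 21.1 ± 2.83 CPM (SD, n = 4). The log2 fold change was thus -0.27 (SE 0.097, 95% interval -0.48 to -0.06), or a change of -17.1% with an interval from -28.5 to -4.00%. The exact two-sided permutation test gave p = 0.0286, the smallest that 4 against 4 libraries can give. In edgeR the unadjusted p was 0.0167, a level under 0.05 that 5.53% of all tested genes reached, and the adjusted p of 0.810 did not pass. Lpar1 was the 1 of 7 markers with an unadjusted p under 0.05, and its adjusted p lay between 0.431 and 1.00 over the alternatives. When ErbB4-/- replicate 1 was left out, the value was -0.19 and the unadjusted edgeR p 0.0536.

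Values of other measures stand beside Lpar1. With Xist as a covariate its log2 fold change was -0.32 and the unadjusted edgeR p 0.0650, and ErbB4+/+ replicate 4, the ErbB4+/+ library without Xist, was at 26.4 CPM against at most 23.7 in the 4 ErbB4-/- libraries that also lack it. Nxph4 had the same order, at 34.0 CPM in that library against at most 31.9, and with 1 such ErbB4+/+ library embryo sex and genotype cannot be told apart. Of 12 cortical progenitor genes, all tested, 11 had negative log2 fold changes (median -0.17), none passed the adjusted edgeR test, and 5 of 12 had an unadjusted p under 0.05 (5.53% of all tested genes), namely Pax6, Hes1, Neurog2, Vim and Nes. Fabp7, the highest of the list per kb, was at 556 ± 119 and 540 ± 9.91 CPM (SD, n = 4; log2 fold change -0.04, edgeR adjusted p = 0.942). Their summed level was 2754 to 3400 CPM in ErbB4+/+ and 2690 to 3062 CPM in ErbB4-/-, and no gene of the list separated the genotypes. The 6 oligodendrocyte lineage genes, from a possible source of Lpar1, had positive log2 fold changes throughout (median 0.21, none passing the adjusted edgeR test). Their sums were 83.5 to 104 CPM in ErbB4+/+ and 92.9 to 111 CPM in ErbB4-/-. An unadjusted edgeR p under 0.05 was reached by 3 of these 6 genes, against 5.53% of all tested genes. For 2 of the 6 the genotypes did not overlap, with ErbB4-/- higher, against 1.86% of all tested genes. The highest of them per kb, Olig1, was at 19.0 ± 3.77 and 20.4 ± 2.04 CPM (SD, n = 4). The part of these cells in the level of Lpar1 was not tested.

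**Figure D2:**
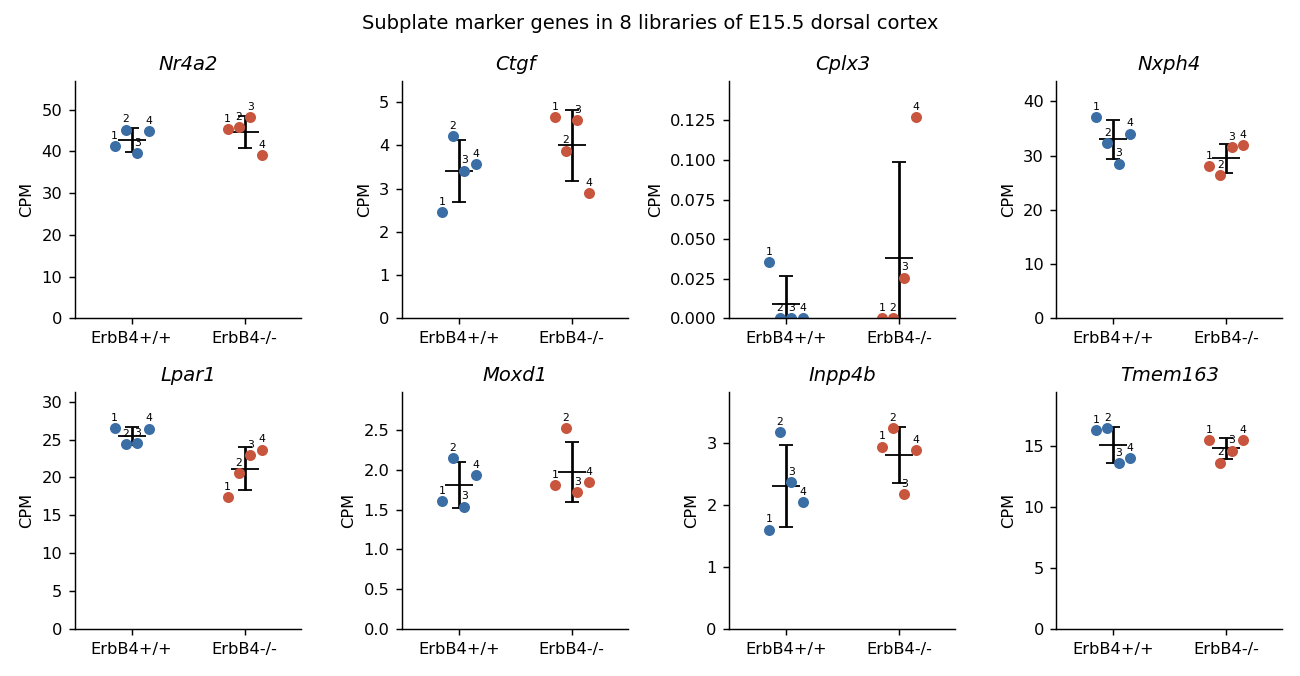
CPM of each marker by library, one panel per gene with its own axis from 0, points numbered by replicate, lines at the mean and bars of 1 SD (n = 4; the lower bars of Cplx3 are cut at 0). Lpar1 is the panel in which the ErbB4-/- points (17.4 to 23.7) lie below all ErbB4+/+ points (24.4 to 26.5).

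Tmem163 encodes a membrane protein that binds and transports zinc. The gene (ENSMUSG00000026347.7) lies on the minus strand of chr1:129383123-129574673, on the chromosome of Erbb4 but 60.2 Mb away. Levels of 16.3, 16.5, 13.6 and 14.0 CPM in ErbB4+/+ and 15.4, 13.6, 14.6 and 15.47 CPM in ErbB4-/- covered nearly one range. The log2 fold change was -0.03 with a 95% interval from -0.23 to 0.17 (edgeR adjusted p = 0.955). Its sign turned in 5 of the 16 alternatives, so no direction can be given.

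Inpp4b encodes a phosphatase that removes the 4-phosphate from phosphatidylinositol 3,4-bisphosphate and thereby acts on PI3K signalling. It lies on the plus strand of chr8:83866455-84648935 (ENSMUSG00000037940.8) and was counted with 45 to 145 reads per library. Its level was 1.61, 3.18, 2.37 and 2.05 CPM in ErbB4+/+ and 2.94, 3.25, 2.18 and 2.89 CPM in ErbB4-/-. Means of 2.30 ± 0.663 and 2.81 ± 0.453 CPM (SD, n = 4) gave the largest positive log2 fold change of the markers, 0.29 (SE 0.21), with a wide 95% interval from -0.18 to 0.75 (edgeR adjusted p = 0.810). ErbB4+/+ replicate 1 was again the lowest, and leaving out single libraries moved the value between 0.16 (without ErbB4+/+ replicate 1) and 0.47 (without ErbB4+/+ replicate 2), and it was 0.50 with Xist as a covariate.

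Moxd1 encodes a protein related to dopamine beta-hydroxylase whose substrate is not known. The gene (ENSMUSG00000020000.7) is at chr10:23943323-24022596 on the plus strand, 293 kb from Ctgf, and the 3 annotated genes between them are not protein coding. It was at 1.61, 2.15, 1.54 and 1.94 CPM in ErbB4+/+ and at 1.81, 2.53, 1.72 and 1.84 CPM in ErbB4-/-. ErbB4-/- replicate 2 was well above the rest of its group. The log2 fold change was 0.12 (95% interval -0.29 to 0.54; edgeR adjusted p = 0.887) and -0.01 without that library. Omitting ErbB4+/+ replicate 3 gave 0.05, its replicate 1 gave 0.08 and its replicate 2 gave 0.22, and Xist as a covariate gave 0.04.

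Cplx3 encodes a complexin, a small protein that binds the SNARE complex of synaptic vesicles, and marks the subplate at later ages. On chr9:57447826-57454088, minus strand (ENSMUSG00000039714.8), it had 1 read among 132717147 counts of the ErbB4+/+ libraries and 5 among 154496173 of ErbB4-/-. ErbB4+/+ replicate 1 held 1 read, ErbB4-/- replicate 3 held 1 and ErbB4-/- replicate 4 held 4, and the other 5 libraries held none, which allows up to 0.0614 to 0.0966 CPM there (3 counts, counting error only). It failed the filter and was not tested, so a difference in Cplx3 was not detectable at this depth.

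The markers did not move as one across the libraries. Their sum was 113.6 to 128.0 CPM in ErbB4+/+ and 115.8 to 125.9 CPM in ErbB4-/-. Over the 8 libraries, the 21 pairs of the 7 tested markers had Pearson's r of log2 CPM from -0.724 (Nxph4 with Inpp4b) to 0.790 (Nr4a2 with Ctgf), with a median of -0.0846 and 9 positive. These coefficients describe 8 points that share depth and library effects. ErbB4+/+ replicate 2 was above the mean in all 7 markers and ErbB4+/+ replicate 3 in 1, while the other libraries were above it in 3 or 4. In ErbB4+/+ the coefficient of variation was 4.52% for Lpar1 and 6.54% for Nr4a2 but 21.1% for Ctgf and 28.8% for Inpp4b, whose counts alone would give about 9.37% and 11.4%. Among the 7 tested markers, the 3 with the fewest reads, Ctgf, Moxd1 and Inpp4b, had the widest intervals.

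**Figure D3:**
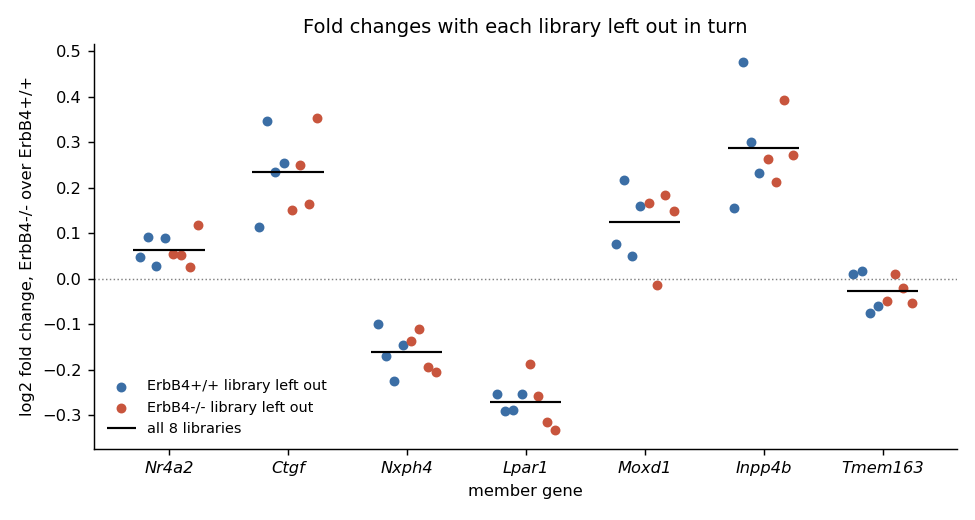
Fold changes on the log2 scale, ErbB4-/- over ErbB4+/+, of the 7 tested markers from edgeR, with all 8 libraries (black line) and after leaving out one library at a time (blue, an ErbB4+/+ library; red, an ErbB4-/- library). Lpar1 stays between -0.33 and -0.19 and Nxph4 between -0.23 and -0.10, whereas Tmem163 and Moxd1 cross 0.

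Likeness of pattern was measured as Pearson's r of log2 CPM over the 8 libraries against every tested gene averaging 100 counts or more (12087 or 12088 genes). The 2 most alike were Cybasc3 (r = 0.977) and Ngef (0.957) for Nr4a2, Mtap7d2 (0.991) and Tspan9 (0.982) for Ctgf, and Erf (0.987) and Tbr1 (0.966) for Nxph4. Lpar1 was followed most closely by Sdhc (0.964) and Rgs16 (0.955). Ryr1 (0.977) and Cecr6 (0.951) were nearest to Moxd1, Dock10 (0.974) and Med23 (0.967) to Inpp4b, and Rdh10 (0.934) and Zfp628 (0.918) to Tmem163. Moxd1 and Inpp4b averaged fewer than 100 counts and so could not appear beside another marker. With so many genes and 8 points, high coefficients arise in any search, and they are given as a description.

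A second list held 20 other genes reported from the subplate or layer 6b, all of them tested. None was called, 14 had positive and 6 negative log2 fold changes, and the median was 0.05 with a range from -0.12 to 0.30. The 3 with an unadjusted edgeR p under 0.05 were higher in ErbB4-/- (Hs3st4, Abca8a and Gabra5), 3 of 20 against 5.53% of all tested genes. Sv2b was the 1 gene of 20 whose genotypes did not overlap, against 3.34% of all tested genes, so that count is near the background. Hs3st4, a heparan sulfate 3-O-sulfotransferase, was at 67.7, 63.8, 56.3 and 59.3 CPM in ErbB4+/+ and 73.2, 79.4, 76.9 and 65.5 CPM in ErbB4-/-. All but ErbB4-/- replicate 4 were above the ErbB4+/+ range. Its log2 fold change was 0.26 (SE 0.078, 95% interval 0.09 to 0.43), with an unadjusted edgeR p of 0.0068 and an adjusted p of 0.810, and 0.21 to 0.31 over the alternatives. For Abca8a, a lipid transporter of the ABC family, the log2 fold change reached 0.30 (SE 0.13), and for the GABA-A receptor subunit Gabra5 0.22 (SE 0.087), both with an edgeR adjusted p of 0.810, and Abca8a was at 0.15 with Xist as a covariate. The synaptic vesicle protein gene Sv2b was at 37.1 to 38.0 CPM in ErbB4+/+ and 38.9 to 41.5 CPM in ErbB4-/-, a log2 fold change of 0.12, which was 0.06 with the length trend removed. Serpini1, which encodes neuroserpin and was the highest of the list per kb, was at 237 ± 15.1 and 232 ± 18.7 CPM (SD, n = 4), and the neurexophilin Nxph3 at 44.2 ± 7.68 and 43.6 ± 4.37 CPM.

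**Figure D4:**
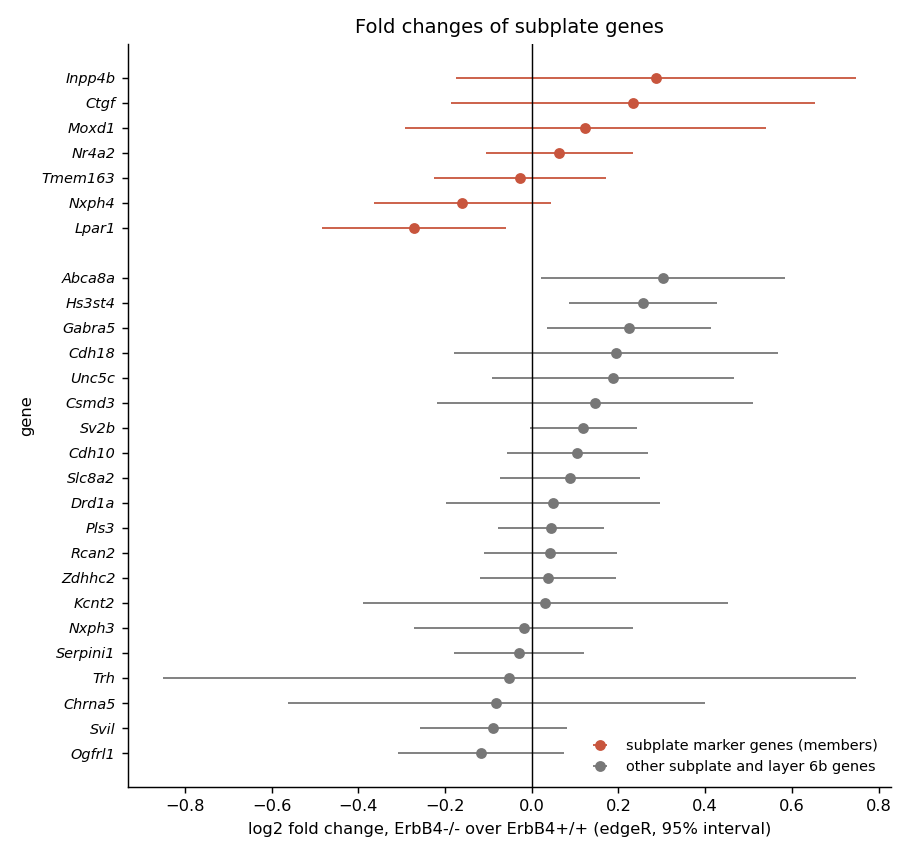
Fold changes on the log2 scale, ErbB4-/- over ErbB4+/+ (edgeR, points), and their 95% intervals (lines) for the 7 tested markers in red and 20 other subplate and layer 6b genes in grey, each sorted by value. Intervals exclude 0 for Lpar1 below it and for Abca8a, Hs3st4 and Gabra5 above it, and none of these passed adjustment over all genes.

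Relatives of the markers by family were compared next. Of 16 listed, 13 were tested, 8 had positive and 5 negative log2 fold changes (median 0.07), and none was called. An unadjusted edgeR p under 0.05 was reached by 2 of 13 (Nr4a3 and Lpar2), against 5.53% of all tested genes. The genotypes did not overlap for 3 of 13, all with ErbB4-/- higher (Nr4a3, Cplx2 and Inpp4a), against 1.86% of all tested genes. Nr4a3, another NR4A receptor, was at 14.5, 25.7, 24.3 and 24.6 CPM in ErbB4+/+ and 28.6, 32.0, 34.1 and 27.1 CPM in ErbB4-/-. The genotypes did not overlap, with ErbB4-/- higher, and ErbB4+/+ replicate 1 was far below the others. The log2 fold change of 0.45 (SE 0.15, 95% interval 0.11 to 0.79) had an unadjusted edgeR p of 0.0134 and an adjusted p of 0.810, which was 0.458 to 1.00 over the alternatives, and leaving out ErbB4+/+ replicate 1 gave 0.29. Nr4a1, the remaining receptor of the family, was at 8.27 ± 0.692 and 7.84 ± 0.984 CPM (SD, n = 4). In contrast to the near absence of Cplx3, the complexins Cplx2 and Cplx1 were at 390 ± 10.6 and 91.8 ± 5.32 CPM in ErbB4+/+ and at 410 ± 2.93 and 95.2 ± 4.99 CPM in ErbB4-/- (SD, n = 4), with a log2 fold change of 0.07 for Cplx2. The paralog of Inpp4b, Inpp4a, was at 83.1 ± 2.91 and 89.8 ± 1.79 CPM (log2 fold change 0.11). With the length trend removed, Cplx2 was at 0.02 and Inpp4a at 0.05, and Cplx2 was also at 0.02 with Xist as a covariate. Nov, a relative of Ctgf, had a log2 fold change of 0.35 (SE 0.17) from 3.83 ± 0.762 and 4.85 ± 0.814 CPM (SD, n = 4), and the zinc transporter Slc30a3 one of -0.28 (SE 0.24), and neither passed the test (edgeR adjusted p = 0.810 and 0.823).

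The other lysophosphatidic acid receptors did not share the direction of Lpar1 as a group. Lpar2 was at 21.3 ± 2.57 CPM in ErbB4+/+ and 24.8 ± 2.02 CPM in ErbB4-/- (SD, n = 4; log2 fold change 0.22, edgeR unadjusted p = 0.0462, adjusted p = 0.810). Its value was 0.14 without ErbB4+/+ replicate 4 and 0.50 with Xist as a covariate. Lpar4 had a log2 fold change of 0.08 and Lpar6 of -0.18, and Lpar3 was at most at 0.223 CPM in any library and was not tested. A list of 12 LPA signalling genes, from synthesis of the ligand to the effectors of its receptors, was also tested. It did not hold Lpar1, Lpar2 or Lpar6. It gave 8 positive and 4 negative values, with none at an unadjusted edgeR p under 0.05. Gnai2, an inhibitory G protein subunit, was the highest per kb at 329 ± 25.3 and 313 ± 12.4 CPM (SD, n = 4). Enpp2, which encodes autotaxin, the enzyme that makes lysophosphatidic acid, was at 20.4 CPM in ErbB4-/- replicate 3 and 7.57 to 10.1 CPM elsewhere, and its log2 fold change of 0.37 was -0.05 without that library. That library also held the choroid plexus genes, with Ttr at 572 CPM against 0.571 to 8.76 in the others, Folr1 at 9.09 and Otx2 at 7.61 CPM, and the part of that tissue in Enpp2 was not tested.

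The pathways around the other markers were read in the same way. Of 10 YAP and TEAD genes, those that bear on Ctgf, 8 were tested, with 4 positive and 4 negative log2 fold changes. The highest per kb, Tead2, was at 157 ± 14.2 CPM in ErbB4+/+ and 131 ± 14.7 CPM in ErbB4-/- (SD, n = 4; log2 fold change -0.26, edgeR unadjusted p = 0.0107, adjusted p = 0.810), and Ankrd1 was at 0 throughout. The 3 neurexins, partners of neurexophilins, had positive log2 fold changes (median 0.09), and the highest per kb, Nrxn2, was at 282 ± 36.1 and 295 ± 15.1 CPM. An unadjusted edgeR p under 0.05 was reached by 1 of these 3, against 5.53% of all tested genes. For Inpp4b, 8 PI3K and phosphatase genes gave 7 positive and 1 negative value (median 0.08). Akt1, the highest per kb, was at 462 ± 23.8 and 446 ± 8.90 CPM, and Pik3r1 was the 1 gene of the list with an unadjusted edgeR p under 0.05, at 126 ± 9.54 and 147 ± 13.9 CPM (adjusted p = 0.810), 1 of 8 against 5.53% of all tested genes. In the YAP and TEAD list Tead2 was likewise the 1 gene at this level. None of these genes was called by edgeR or DESeq2.

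Markers of the cells around the subplate were read beside it. The 11 deep-layer neuron genes had 9 positive and 2 negative log2 fold changes with a median of 0.02, the highest per kb being Nfib at 1015 ± 52.0 and 1025 ± 76.3 CPM (SD, n = 4). Tle4, Zfpm2 and Ntsr1, 3 of the 11, had an unadjusted edgeR p under 0.05 with ErbB4-/- higher, and Tle4 and Zfpm2 did not overlap between genotypes, against 5.53% and 1.86% of all tested genes. The 10 upper-layer genes had 6 positive and 4 negative (median 0.10), with Lhx2 highest per kb at 358 ± 25.6 and 345 ± 22.0 CPM. An unadjusted edgeR p under 0.05 was reached by 2 of these 10, with ErbB4-/- higher, against 5.53% of all tested genes. Claustrum and insular genes, which share Nr4a2 as a marker, had 4 positive and 2 negative (median 0.07), with 2 of 6 (Gng2 and Cdh13) at an unadjusted edgeR p under 0.05 and 1 of 6 (Gng2) not overlapping, against 5.53% and 1.86% of all tested genes. Gng2, the highest per kb, was at 1118 ± 38.7 and 1230 ± 51.3 CPM. The 6 Cajal-Retzius genes, which mark the other early-born neurons of the preplate, had 3 positive and 3 negative, with Reln at 167 ± 30.1 and 196 ± 24.4 CPM. Ganglionic eminence and interneuron genes summed to 574 to 751 CPM in ErbB4+/+ and 549 to 751 CPM in ErbB4-/-, so interneuron RNA was present in both after dissection. Of these 10 genes, 4 had positive and 6 negative log2 fold changes. Sst, the highest per kb, was at 102 ± 15.6 and 86.5 ± 4.59 CPM (log2 fold change -0.23, edgeR unadjusted p = 0.0330, adjusted p = 0.810). It was the 1 gene of 10 with an unadjusted edgeR p under 0.05, against 5.53% of all tested genes. The 4 thalamus genes had negative log2 fold changes (median -0.12) and low sums of 36.6 to 55.4 and 42.4 to 47.6 CPM, with Lhx9 highest per kb at 18.0 to 27.1 and 21.7 to 25.95 CPM.

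Endothelial and pericyte genes, a possible source of Ctgf, summed to 175 to 198 CPM in ErbB4+/+ and 183 to 196 CPM in ErbB4-/-. Of 9 genes, 6 were positive and 3 negative, and 1 of 9 (Pdgfrb, with ErbB4-/- higher) did not overlap between genotypes, against 1.86% of all tested genes. Cldn5, the highest per kb, was at 39.8 ± 6.69 and 38.5 ± 3.74 CPM (SD, n = 4). Meningeal fibroblast genes summed to 13.2 to 16.0 and 12.7 to 21.2 CPM, with Dcn at 2.97 ± 0.503 and 2.90 ± 0.383 CPM. Ctgf was at 2.46 to 4.65 CPM over the libraries. The part of either cell type in the level of Ctgf was not tested. Microglia genes had 4 positive and 1 negative value, with C1qa highest per kb at 5.43 ± 1.66 and 5.66 ± 1.13 CPM, and dorsal cortex genes 1 positive and 6 negative (median -0.03). Among 5 tested red blood cell genes 3 were negative, and 2 of 5 (Hbb-y and Hba-x) were lower in ErbB4-/- at an unadjusted edgeR p under 0.05, against 5.53% of all tested genes. Hbb-y was at 13.9 to 34.6 CPM in ErbB4+/+ and 3.69 to 18.3 CPM in ErbB4-/- (log2 fold change -1.72, edgeR unadjusted p = 0.0027, adjusted p = 0.810).

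**Figure D5:**
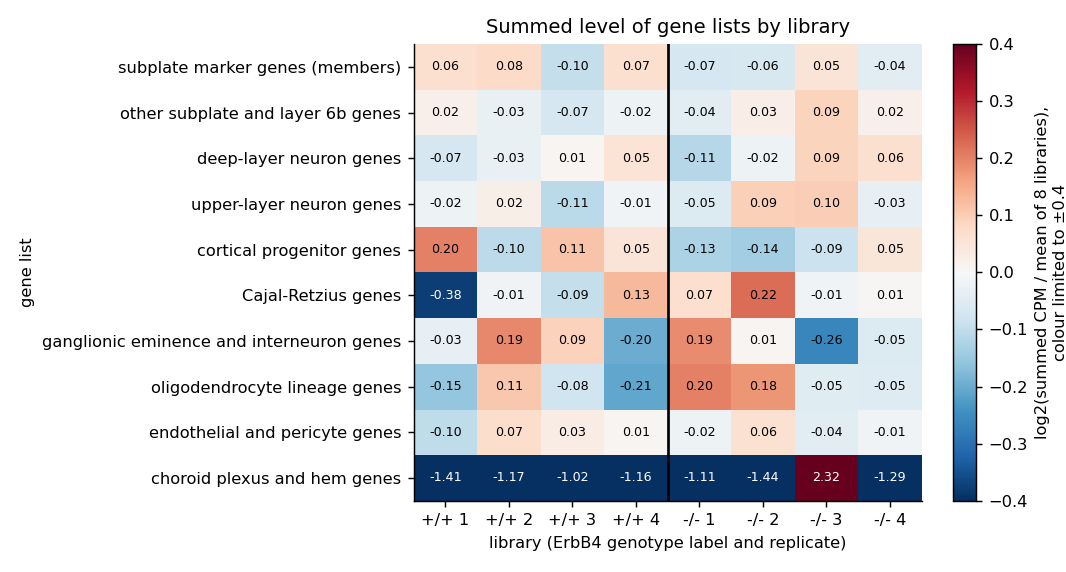
Summed CPM of 10 gene lists in each library as log2 of its ratio to the mean of the 8 libraries, printed in each cell, with colours limited to 0.4 on either side. The markers stay between -0.10 and 0.08, while choroid plexus and hem genes reach 2.32 in ErbB4-/- replicate 3.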

How the data were processed

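Single-end reads of 50 nucleotides from non-strand-specific polyA libraries were mapped by the authors to mm9 with HISAT and counted per gene with HTSeq-count, and the deposited files hold these raw counts, with no normalization. The annotation and tool versions are not given in the sources used here. The deposited DESeq2 table holds the authors' own comparison and was not used.

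The main test was the quasi-likelihood test of edgeR 4.0.16 (R 4.3.3) after TMM normalization, with p-values adjusted by Benjamini-Hochberg over the 14696 genes that filterByExpr kept (count of at least 10, total of at least 15) and a threshold of 0.05. The SE is the log2 fold change over the root of the F statistic, and log2 CPM has a prior count of 2. Exact permutation tests, two-sided, ran over the 70 assignments of the libraries. GENCODE on NCBIM37 (mm9) gave lengths and positions, and RefSeq the promoters. Alternatives were RLE factors, DESeq2 1.42.0, limma-voom (limma 3.58.1), no filter, a replicate block, Xist as a covariate, removal of the length trend (loess, span 0.5), and leaving out each library. Leaving out ErbB4+/+ replicate 1 with ErbB4-/- replicate 3 was added after seeing the data.

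The markers and the 22 lists were chosen with earlier results of these data known. Of the lists, the text names the markers, the 3 highest per kb and the 3 largest log2 fold changes of the other subplate genes and of the relatives, the highest gene of each remaining list, and the 2 genes most alike to each marker. Ddx3y, Enpp2, Nr4a1, Lpar2, Lpar3, Lpar4, Lpar6, Sv2b, Pik3r1, Folr1, Otx2, Ankrd1, Pax6, Hes1, Neurog2, Vim, Nes, Tle4, Zfpm2, Ntsr1, Cdh13, Pdgfrb and Hba-x were named after their values were seen, and 2 list genes were not found in the files. Simulated data held 200 changed genes in this comparison. Among 14606 genes, edgeR recovered 93 of 100 changed 2-fold and 62 of 100 changed 1.5-fold, with 10 false calls. DESeq2 recovered 93 and 69 among 14696, with 34 false calls. The simulation held no length trend, sex difference or choroid plexus tissue. The largest change of a marker was 1.22-fold (Inpp4b), smaller than any simulated, so these rates do not give the power for the markers. Replicates differed beyond sampling noise (chi-square per degree of freedom at least 6.25), so no library was counted as a copy. Figures were drawn with matplotlib 3.10.9.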

Additional observations from a re-analysis of the deposited data

Results flagged for a closer look

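Within each group of 4 libraries, a library far from the other 3 was looked for in 60 values (120 groups), and 10 were found, where chance alone gives about 1 in 20 groups. Of the markers, Moxd1 was at 2.53 CPM in ErbB4-/- replicate 2 against a group median of 1.82. Cplx3 was at 0.0357 CPM in ErbB4+/+ replicate 1, a single read, against 0 in the other 3. The summed level of the markers was 113.6 CPM in ErbB4+/+ replicate 3 against a group median of 126.9.

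ErbB4+/+ replicate 1, the library with the length trend, stood apart for Nr4a3 at 14.5 CPM (group median 24.4), Slc30a3 at 2.25 CPM (median 1.25) and Lhx9 at 18.0 CPM (median 26.6). ErbB4-/- replicate 3 held Ttr at 572 CPM (median 5.75) and the choroid plexus and hem genes at a sum of 647 CPM (median 56.5). ErbB4-/- replicate 1 was above the rest of its group for Sst at 93.4 CPM (median 84.3) and for Dcn at 3.47 CPM (median 2.73).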

How the results depend on the processing

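No marker passed the adjusted test under any of the 16 alternatives. Of all genes, 4 were called, and 1 with RLE factors, 1 with the replicate block, 1 with Xist as a covariate, 2 with the length trend removed and 23 with DESeq2. Leaving out one library gave 1 to 13 calls. The 13 came from omitting ErbB4+/+ replicate 4. Omitting replicate 1 of that genotype gave 6 and its replicate 2 gave 2, as did ErbB4-/- replicate 4, and each of the remaining 4 libraries left 1. With Xist as a covariate the log2 fold change of Nr4a2 turned to -0.011 and that of Tmem163 to 0.066, and the median log2 fold change of the other subplate and layer 6b genes was 0.13. Tmem163 was at 0.020 without ErbB4+/+ replicate 1 and ErbB4-/- replicate 3 together, and at -0.074 to 0.017 when single libraries were left out. Moxd1 ranged from -0.015 (without ErbB4-/- replicate 2) to 0.22, and the median of the other subplate genes from 0.053 to 0.10. The cause was not tested. Ctgf, Nxph4, Lpar1 and Inpp4b kept their sign in all 16 alternatives. Of the other 20 subplate genes, 12 to 17 were positive and 0 were called. Same-numbered libraries of the genotypes correlated in their deviations at 0.0837, 0.1346, 0.0476 and 0.0236, and the other combinations at -0.1867 to 0.1538. The same-numbered library was the closest for ErbB4-/- replicates 1 to 3 but not for replicate 4. These values do not settle whether the numbers are pairs. The main test did not take them as pairs, because the lines were bred as separate homozygous colonies. The replicate block changed no marker's call. Depth limits Cplx3, with at most 4 reads in a library.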
